A study of Mus musculus with 4 samples.

Results

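The cells described here were the Aspn-rich cells of a mouse tibia, chosen by a set of limits on single-cell counts and labelled in advance as periosteal or tendon-like fibroblasts. Of 14181 cell barcodes, 8256 had at least 1600 detected genes and at most 10% mitochondrial UMIs. A UMI (unique molecular identifier) stands for 1 captured transcript, and levels in a cell are given per 10000 of its UMIs. An Aspn-rich cell had at least 10 UMIs of Aspn per 10000, under 3 of Ifitm5, under 50 of Col2a1 and at most 1 UMI of Ptprc. These limits exclude mature osteoblasts, chondrocytes and leukocytes, and they left 229 cells, 2.77% of the barcodes kept (95% Clopper-Pearson interval 2.43 to 3.15%).

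All cells came from 1 library, made from the pooled tibiae of 1 male mouse at postnatal day 6. Its genotype was Col10a1Cre with the Rosa26-Tdtomato reporter, Irx3 +/Δ and Irx5 +/-, which the labels call a heterozygous control. Cre under the Col10a1 promoter marks hypertrophic chondrocytes (HCs) and their descendants with tdTomato, so the other lineages of the bone carry no mark of their own. The whole tibia without the secondary ossification centres was digested with dispase and collagenase for an hour, without a sort. With 1 mouse there was no replicate, and every interval below covers counting error only. Cells of 1 library are not replicates, so values are described without tests.

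Connective tissue fibroblasts build and maintain the collagen matrix that wraps bones and ties them to muscle. Tendon cells are known for Scx, a transcription factor, and Tnmd, a membrane glycoprotein that matures late in the tendon programme, and they line up collagen I fibrils with the help of small leucine-rich proteoglycans. The periosteum is a sheath of an outer fibrous layer and an inner layer that feeds bone-forming cells, and it is known for Postn, Ctsk and Sca-1 (encoded by Ly6a). Aspn encodes asporin, a small leucine-rich proteoglycan that binds collagen and TGF-beta.

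Aspn (ENSMUSG00000021388) lies on the forward strand of chromosome 13 at 49544443 to 49567565 (GRCm38), inside a run of related proteoglycan genes. Ecm2 ends before it at 49532789, and Omd and Ogn begin after it at 49582462 and 49608046. All 4 genes fall within the span of Cenpp, which is read from the opposite strand (49464023 to 49652785). The 250 bases before the Aspn start, from the RefSeq promoter table of GRCm38.p6 (chr13:49544193-49544442, forward strand), are shown because the gene defines the cells. Capitals mark the letters CANNTG, the E-box core that basic helix-loop-helix factors such as the product of Scx can bind. It reads the same on both strands.
Aspn upstream: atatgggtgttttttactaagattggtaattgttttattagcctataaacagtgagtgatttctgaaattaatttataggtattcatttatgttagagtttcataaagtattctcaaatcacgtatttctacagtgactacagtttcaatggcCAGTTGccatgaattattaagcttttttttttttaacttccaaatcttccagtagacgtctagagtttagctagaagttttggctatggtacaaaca
The window held 1 match. Of 32851 promoters in the table, 66.2% held at least 1 in the same 250 bases, so a match there is common and describes the letters only.

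By construction, Aspn was high in these cells. It ranged from 10.0 to 106 per 10000, with a median of 23.5. The 5 cells nearest the limit on the inside had 10.0 to 10.2 per 10000, and the 5 nearest on the outside had 9.64 to 9.83. The limit cut through a continuous range, since 22 members lay between 10 and 12 and 28 cells that met the other limits lay between 8 and 10. Aspn decided nearly all of the choice: of 233 barcodes with enough Aspn, 0 were lost to Ifitm5, 1 to Col2a1 and 3 to Ptprc.

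The Aspn-rich cells had a median of 9392 UMIs (range 3680 to 26559) and 2890 genes (1664 to 5496) per cell, with 5.60% mitochondrial UMIs, and 2308186 UMIs in all. Scrublet marked 4 of them as doublets. They were compared with 3 other classes set by similar limits, which shared no cell with them. Osteoblast-lineage cells low in Aspn (at least 50 per 10000 of Col1a1, under 10 of Aspn, under 3 of Ifitm5, little Col2a1, Cxcl12, Rgs5 and Ptprc) numbered 296 with a median of 12676.5 UMIs. Mature osteoblasts (at least 3 per 10000 of Ifitm5) numbered 350 with a median of 18929, and Cxcl12-abundant stromal cells (at least 50 per 10000 of Cxcl12 and little Aspn) numbered 173 with a median of 10025. Col2a1-rich chondrocytes (2072 cells) and Ptprc-positive leukocytes (1523 cells, median of 13606 UMIs) served as reference for background RNA. Levels of a class are its summed UMIs of a gene per 1000000 UMIs (CPM), and these counts of transcript 3′ ends do not scale with transcript length.

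The label held for most of the cells but not for all. Fndc1, a fibronectin type III domain protein, had 509.9 CPM in Aspn-rich cells (95% Poisson interval 481 to 539.9), 87.6 in the Aspn-low class, 3.86 in mature osteoblasts and 0 UMIs in the Cxcl12-abundant class, where 3 UMIs would be 1.57 CPM. Col14a1, a fibril-associated collagen, had 646 CPM (614 to 680.0) against 98.1, 4.96 and 5.76. Tnmd had 616 CPM (584 to 649) against 289.6, 3.58 and 15.2. So 3 of 3 label genes outside the rule were highest in Aspn-rich cells, and the Aspn-low class came next for each. These 3 came with the label, and members and lists were chosen with earlier results of these data known. Their order is thus no independent support for the label. Per cell, Fndc1 was found in 165 of 229, Col14a1 in 159 and Tnmd in 100. All 3 were found in 89 cells, whereas 48 cells had none of them.

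Depth affects such shares, so each cell was thinned to 5000 UMIs, which left 218 Aspn-rich cells and dropped 11. Tnmd was then found in 40.8% of Aspn-rich cells (34.2 to 47.7%), against 43.7% before thinning. The thinned share was 18.4% (14.1 to 23.3%) in the Aspn-low class, 5.36% in Cxcl12-abundant cells and 0.573% in mature osteoblasts. In leukocytes, which do not make tenomodulin, it was 0.335% (0.109 to 0.78%). Thinned shares of Fndc1 and Col14a1 were 66.5% and 67.0%, against 0.201% and 1.07% in leukocytes.

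**Figure D1:**
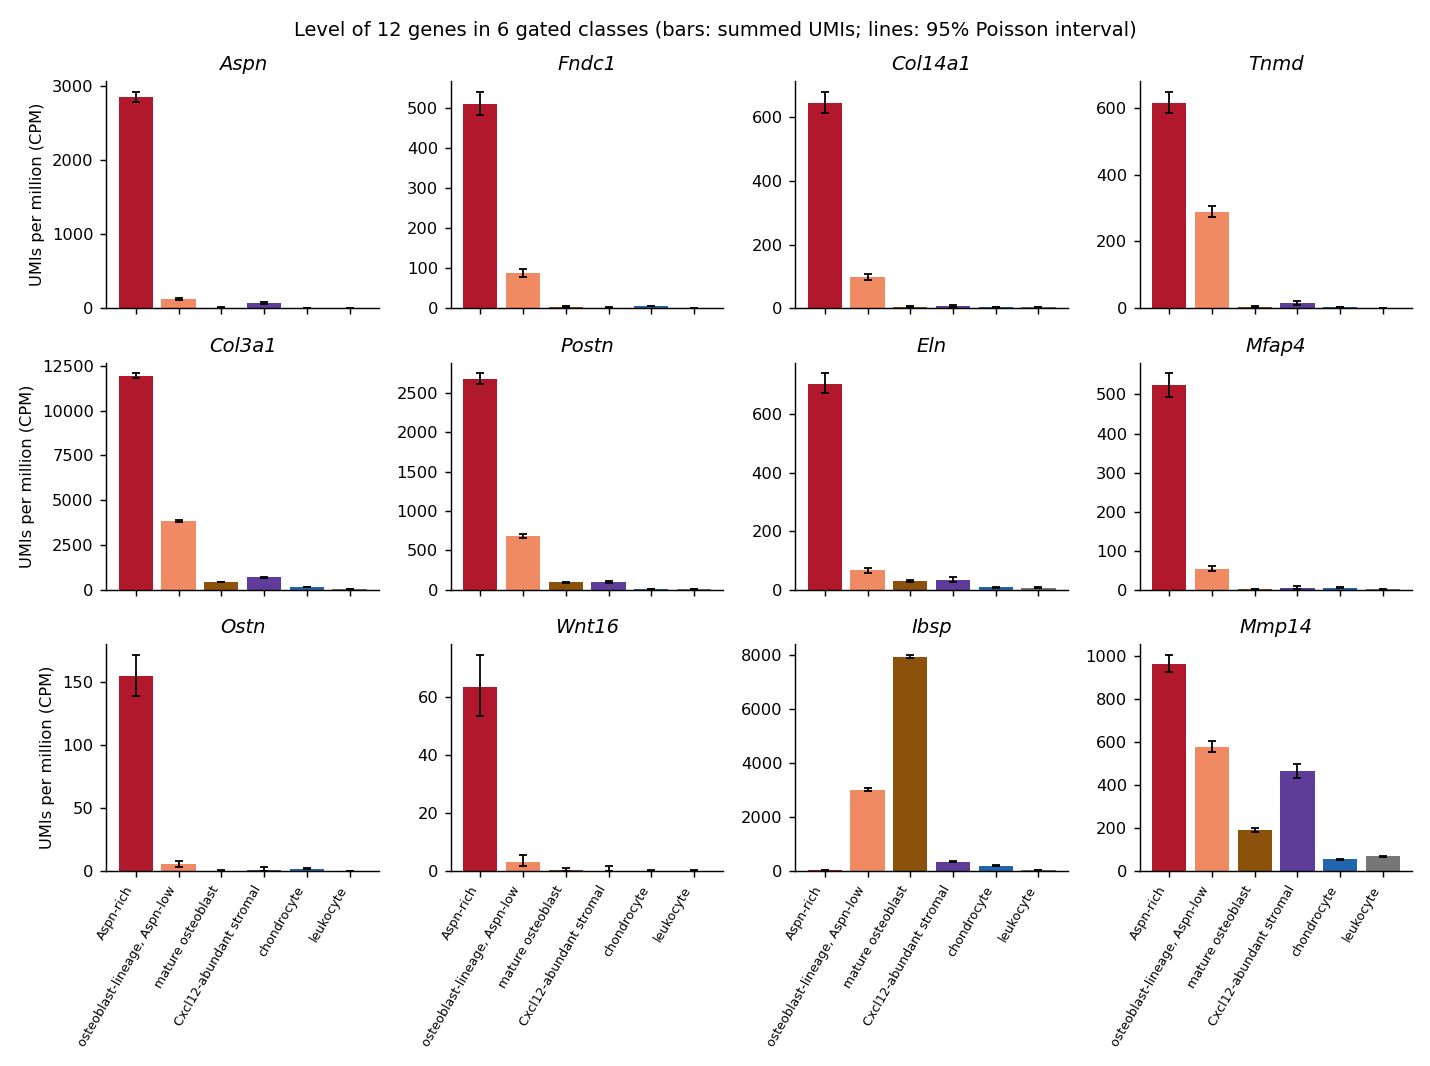
Summed UMIs per 1000000 (CPM, bars) of 12 genes in 6 gated classes, with 95% Poisson intervals (lines). Aspn chose the cells, and several other panels were picked from the label or from the genes ranked highest in these cells. So it follows in part from the choice that 10 of the other panels also peak in Aspn-rich cells. Ibsp was at 43.8 CPM there and at 7924 in mature osteoblasts.

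The HC lineage mark was absent from these cells at the cutoff of the study, more than 14 UMIs of WPRE, an element in the 3′ end of the tdTomato reporter transcript. Of 229 Aspn-rich cells, 0 passed it, which allows a share of up to 1.31%. The share was 34.9% of mature osteoblasts (122 of 350), 18.5% of Cxcl12-abundant cells, 9.46% of the Aspn-low class, 3.33% of chondrocytes and 0.525% of leukocytes. No Aspn-rich cell had more than 3 WPRE UMIs. WPRE had 24.3 CPM in Aspn-rich cells (18.3 to 31.5), an interval that overlaps that of the 28.5 CPM in leukocytes (26.4 to 30.7) and lies below the 332 of the Aspn-low class and the 627 of mature osteoblasts. The share with at least 1 WPRE UMI was 20.5% (15.5 to 26.3%), against 23.5% in leukocytes (21.4 to 25.7%). These shares were not thinned, and median depths were 9392 and 13606 UMIs. The leukocytes also held 8 cells over 14 WPRE UMIs, so their share and level are not background alone. tdTomato itself had 1 UMI in 1 Aspn-rich cell.

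**Figure D2:**
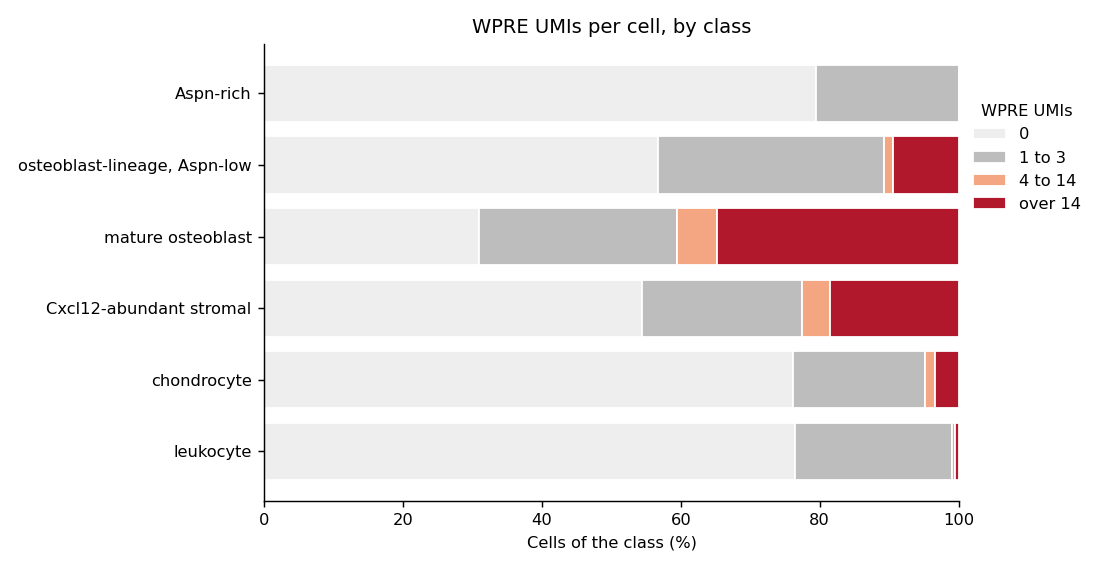
Share of cells (%) of each class by the number of WPRE UMIs per cell. The Aspn-rich bar has 79.5% of cells with 0, 20.5% with 1 to 3 and none above, close to the leukocyte bar.

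The nearest class was the osteoblast lineage low in Aspn, and the comparison asks what sets Aspn-rich cells apart from cells chosen for Col1a1. The Aspn-rich cells were not held to the Col1a1 and Rgs5 limits of that class. Of 229 Aspn-rich cells, 177 reached its Col1a1 limit, and 20 exceeded the Rgs5 level it allowed. Despite its name, some cells of the class had Tnmd (above) or Kera (below). It may thus hold tendon-like cells, which was not tested. Of 6406 genes with at least 20 CPM in either class, 210 (3.28%) were at least 2-fold higher in Aspn-rich cells and 109 (1.7%) at least 2-fold lower, on log2 ratios with 10 CPM added. The 7 genes used to set the classes were left out of all such counts. Against mature osteoblasts, 904 of 6302 genes (14.3%) were higher and 234 (3.71%) lower. The median over all genes was shifted there by 0.33 on the log2 scale, and with a median-of-ratios scale the split was 690 higher and 361 lower. Against Cxcl12-abundant cells, 364 of 6790 (5.36%) were higher and 433 (6.38%) lower, with a median of -0.11. With a median-of-ratios scale that split turned, to 400 higher and 368 lower. The median against the Aspn-low class was 0.06. Counts of listed genes below are to be read beside these shares, 3.28% higher and 1.7% lower for the Aspn-low class.

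Ranked by the smallest of their 3 log2 ratios, the leading genes were Ostn, Eln, C1qtnf3, Mfap4, Col14a1, Thy1, Wnt16, Megf6, Fndc1 and Pamr1, followed by Mfap5, Sema3c, H19, Camk4, Itgbl1, Crispld2, Tnn, Col8a2, Itm2a and Lsp1. Ostn encodes osteocrin, a secreted peptide of periosteum and muscle. It had 154.7 CPM (139.0 to 171.6), 5.27 in the Aspn-low class, 0.524 in Cxcl12-abundant cells and 0 UMIs in mature osteoblasts. It was concentrated in 47 of the 229 cells. Eln encodes tropoelastin and had 705 CPM against 66.0, 29.8 and 32.5. It was found in 132 cells and reached 144 per 10000. Thy1, a surface protein of fibroblasts, had 140.4 CPM against 14.8, 1.93 and 6.81. Tnn, encoding tenascin-W, had 340.1 CPM against 71.3 and 26.7, with 0 UMIs in Cxcl12-abundant cells. Wnt16, a Wnt ligand that restrains loss of cortical bone, had 63.3 CPM (53.4 to 74.4) against 3.26 and 0.413, with 0 UMIs in Cxcl12-abundant cells. H19, an imprinted RNA of growing tissues, had 2352 CPM against 344, 47.8 and 483, and Itm2a, a membrane protein of early chondrogenic and muscle cells, had 1906 against 383, 70.3 and 438. Chondrocytes, however, had 2623 CPM of H19 and 1214 of Itm2a. C1qtnf3, an adiponectin-related secreted protein, likewise had 347 CPM in Aspn-rich cells and 1347 in chondrocytes.

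Summed over all members, transcripts of collagen III and of elastic fibre genes were higher than in the Aspn-low class. Col3a1, which co-assembles with collagen I in pliable tissues, was found in all 229 cells at 3.52 to 449 per 10000 (median 124). Its level was 11938 CPM against 3838 in the Aspn-low class, 429 in mature osteoblasts and 689 in Cxcl12-abundant cells. The rule did not use Col1a2, which had 15368 CPM against 21548 and 62330 in the first pair and 1787 in the last. The Aspn-low class was chosen for Col1a1, so its collagen I level is in part set by that limit. Of 17 fibrillar and fibril-associated collagen genes, 6 were at least 2-fold higher than in the Aspn-low class and 1 lower (Col22a1, also in the osteoblast list, at 3.47 against 106.6 CPM), with a median log2 ratio of 0.64. Apart from Col14a1, the higher ones were Col3a1, Col5a3, Col8a1, Col8a2 and Col16a1. Col5a3 was no longer called without the 21 cells richest in Ly6a, described below, and the other 5 were. Col8a1, a short-chain collagen, had 287 CPM against 22.1.

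Of 16 genes of elastic fibres and microfibrils, 11 were at least 2-fold higher than in the Aspn-low class and 0 lower. Their median log2 ratio was 1.61, and their summed level 5242 CPM against 1562 CPM. Besides Eln, these were the fibrillin genes Fbn1 and Fbn2, the fibulin genes Fbln2, Fbln5 and Efemp1, the microfibril-associated Mfap2, Mfap4 and Mfap5, and the latent TGF-beta binding genes Ltbp1 and Ltbp2. Mfap4 had 524 CPM against 53.9, and Fbn2 284 against 90.1. Against mature osteoblasts, 14 of 16 were higher, and against Cxcl12-abundant cells 7 of 16, beside 14.3% and 5.36% of all genes. Without the 21 Ly6a-rich cells, 8 of 15 were higher than in the Aspn-low class and the sum was 3870.3 CPM. Mfap5, Fbn1 and Efemp1 were no longer called. The excess was not in every range of members described below. The list summed to 15606 CPM in the Ly6a range, 5242 in the remaining cells and 4921 in the Tnmd range. In the 47 Alpl-range and 20 Rgs5-range cells it summed to 1715 and 1513 CPM, near the 1562 of the Aspn-low class. Fbn1 had 1091 CPM against 926 in Cxcl12-abundant cells, and Fbln5 168.1 against 322.

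Small leucine-rich proteoglycans other than Aspn were less uniform. Of 12 with enough counts, 4 (Kera, Prelp, Omd and Ogn) were at least 2-fold higher than in the Aspn-low class and 0 lower, with a median of 0.77. Without the 21 Ly6a-rich cells, Prelp was no longer called and Fmod was. Omd and Ogn are the neighbours of Aspn on chromosome 13. Ogn, encoding osteoglycin, was found in 196 cells and had 629 CPM against 148.3 in the Aspn-low class and 13.8 in mature osteoblasts. Omd, encoding osteomodulin, had 147.7 against 62.5 and 107.6. Ecm2, on the other side, had 93.2 CPM against 51.2, under the 2-fold mark. Dcn (decorin), Bgn (biglycan) and Lum (lumican) were the abundant members, at 2800, 2865 and 1654 CPM, and were within 2-fold of the Aspn-low class.

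Matricellular proteins, which signal from the matrix without bearing load, had 9 of 21 genes higher and 1 lower, with a median of 0.68. Of the 9, Tnxb and Nov were no longer called without the 21 Ly6a-rich cells. The lower one was Spp1 (osteopontin), at 1001 CPM against 16852, which alone made their summed level lower in Aspn-rich cells (20819 against 35020 CPM). Postn (periostin) was found in 219 cells, with a median of 18.8 and a highest value of 141 per 10000. It had 2680.0 CPM against 679, 91.5 and 94.8 in the 3 classes. Thbs2, Thbs3 and Thbs4, encoding thrombospondins, had 701, 364 and 271.6 CPM against 212, 136 and 108.9 in the Aspn-low class. Of 18 genes of collagen maturation, 4 were higher (Loxl1, Loxl2, P4ha3 and Pcolce2), 0 lower, and the median was 0.00. Of the 126 UMIs of Pcolce2, 104 were in the 21 Ly6a-rich cells, without which it was no longer called.

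Among the lists for connective tissue types, the tendon list had 5 of 7 genes higher than in the Aspn-low class (Scx, Tnmd, Thbs4, Kera and Tppp3) and 0 lower. The periosteum list had 6 of 10 higher (Postn, Ogn, Ctsk, Ly6a, Thy1 and Sfrp2) and 1 lower (Cd200), and the list of loose connective tissue fibroblasts 8 of 10 higher and 0 lower. Medians were 1.09, 1.44 and 1.53, beside 0.06 over all genes. Summed levels were 2739 against 1336 CPM, 5096 against 1702 and 2482 against 1092. The excess of the loose connective tissue list rested on 21 cells rich in Ly6a, which held 3730 of its 5728 UMIs. In the other 208 cells it summed to 980.2 CPM, below the Aspn-low class, and 0 of 8 genes were higher. The tendon list summed to 2962 CPM in those 208 cells, with Tppp3 no longer called and Fmod called, and the periosteum list to 4946 CPM, with 5 of 11 genes higher and 2 lower. With levels averaged over cells, in place of summed, the tendon and loose connective tissue lists were under 2-fold (log2 ratios of 0.70 and 0.74). Scx had 87.9 CPM against 26.8 in the Aspn-low class, 30.9 in mature osteoblasts and 3.67 in Cxcl12-abundant cells. Kera, encoding keratocan, had 105.7 CPM against 44.4, but the thinned shares of cells with it were 12.8% and 12.9%, so the share gave no order of the classes. Of the synovial lining list, only 2 genes had enough counts. Cd55 was higher, with 155 of its 191 UMIs in the 21 Ly6a-rich cells and no call without them, and Prg4 (lubricin) was at 19.1 CPM, 47.7% of it in 1 cell.

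**Figure D3:**
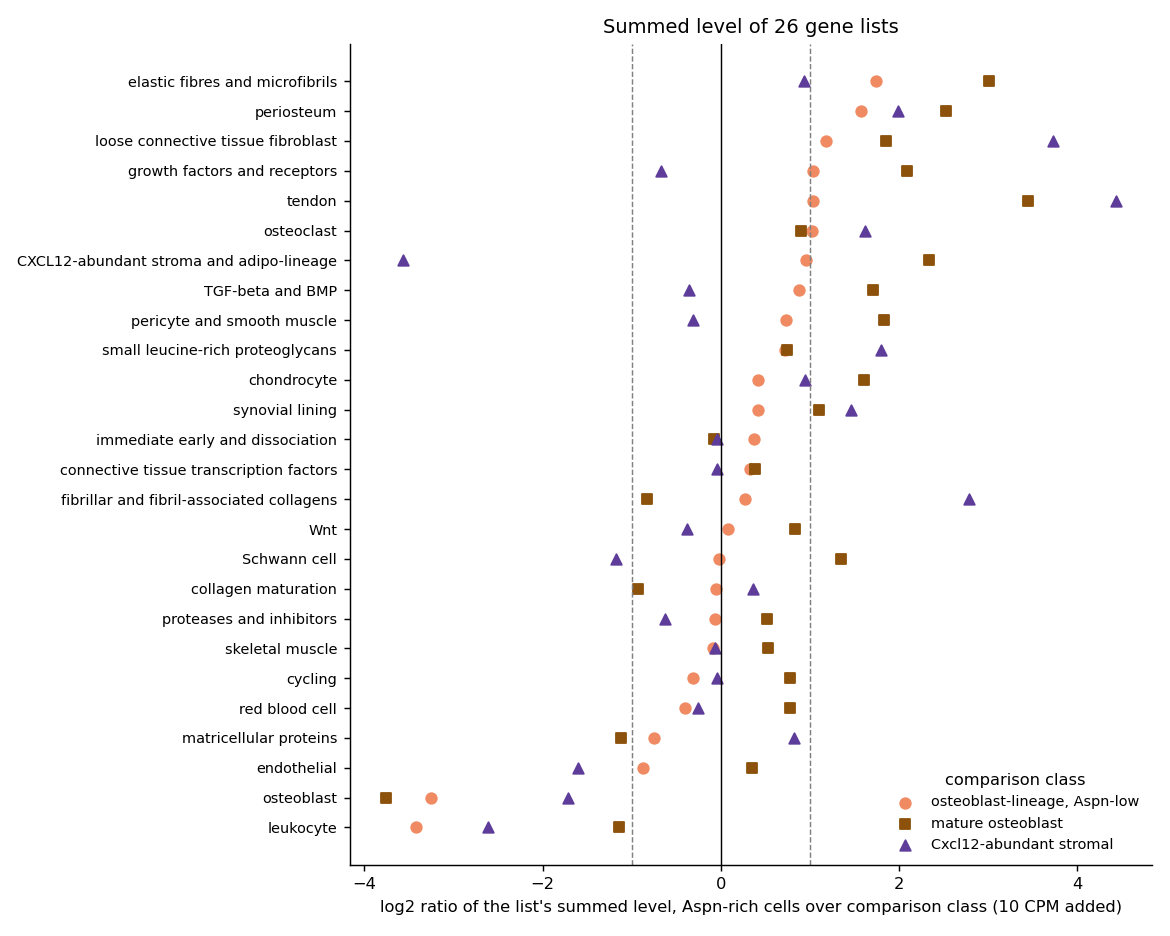
Log2 ratio of the summed level of 26 gene lists in Aspn-rich cells over each of 3 classes, with 10 CPM added and dashed lines at 2-fold. The separate list of the label genes is not drawn, but Tnmd counts in the tendon list, Col14a1 in the collagen list and Fndc1 in the matricellular list. Elastic fibre genes lie at 1.74 and periosteum genes at 1.58 against the Aspn-low class, and the osteoblast list lies at -3.25, -3.75 and -1.72 against the 3 classes. These are ratios of sums, and the median over osteoblast genes against Cxcl12-abundant cells was -0.03.

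Osteoblast genes were low against the Aspn-low class and mature osteoblasts. Of 17 in the list, 0 were higher and 11 at least 2-fold lower than in the Aspn-low class, with a median of -1.83. Against mature osteoblasts 0 of 17 were higher and 12 lower (median -2.74). Against Cxcl12-abundant cells 2 of 13 were higher and 4 lower, with a median of -0.03. Ibsp (bone sialoprotein) had 43.8 CPM (101 UMIs in 45 cells) against 3014 and 7924 CPM in the Aspn-low class and mature osteoblasts. Bglap (osteocalcin) had 137 CPM against 2256 and 10472, though reads of its near-identical copies Bglap2 and Bglap3 may be split among the 3. Dmp1 and Phex, genes of mineralising cells and osteocytes, had 6 and 3 UMIs in all 229 cells. Spp1 was uneven, with a median of 0.848 per 10000 and a highest value of 537, and 24.0% of its UMIs were in 1 cell. Summed over all members, Runx2, the osteoblast-determining factor, had 117 CPM against 145.8, and Alpl (alkaline phosphatase) 495 against 740.5 CPM, both within 2-fold. Neither sum describes every cell. Of the 1143 UMIs of Alpl, 723 were in 47 cells set apart below by their Alpl level, and 124 of 229 members had any. In the 21 Ly6a-rich cells Alpl had 1 UMI and Runx2 0. The rule itself capped Ifitm5, which is described no further.

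The other genes far below the Aspn-low class were S100a9, Camp, S100a8, Ngp, BC100530, Stfa1, Gm5483 and Stfa2l1, all most abundant in leukocytes among the 6 classes. S100a8 had 61.1 CPM in Aspn-rich cells against 1164 in the Aspn-low class and 14127 in leukocytes. When the 6 Aspn-low cells with at least 50 per 10000 of S100a8 and S100a9 were left out, these 8 ratios turned positive, at 0.011 to 0.53. The other 27 of the 35 leading and lowest genes, all picked for large ratios, stayed at least 2-fold different without those cells. Among the leading genes, Mfap5 and Sema3c rested on the Ly6a-rich cells, without which they had 127.1 CPM against 116.4 and 101.6 against 45.9 (log2 ratios of 0.12 and 0.996, the latter just under 2-fold).

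Signalling genes differed by comparison. Of 20 growth factors, receptors and binding proteins with enough counts, 6 were higher than in the Aspn-low class (Igf1, Igf2, Igfbp3, Igfbp5, Igfbp6 and Hhip) and 0 lower, with a median of 0.62. Igfbp6 and Hhip were no longer called without the 21 Ly6a-rich cells, when Igfbp6 had 220.3 CPM against 188.4. Igfbp3 had 392 CPM against 16.8, 11.2 and 135.1. Igf1 had 638 CPM against 140.0 in the Aspn-low class but 1129 in Cxcl12-abundant cells. Of 21 TGF-beta and BMP genes, 4 were higher (Tgfb3, Tgfbr2, Fst and Fstl1) and 2 lower (Tgfb1 and Grem1), with a median of 0.47. Without the 21 Ly6a-rich cells 4 of 20 were higher, with Tgfbr2 not among them and Nog among them, and 1 was lower. Against Cxcl12-abundant cells 3 of 23 were higher and 5 lower, beside 5.36% and 6.38% of all genes. In the Wnt list 3 of 14 were higher (Wnt16, Sfrp2 and Dkk3) and 1 lower (Wnt4), with a median of 0.75. Of transcription factors of connective tissue, Pitx1, a hindlimb factor, had 63.7 CPM against 24.1 in the Aspn-low class, 10.3 in mature osteoblasts and 12.6 in Cxcl12-abundant cells.

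The genes at the centre of the study were also measured. Mmp14, the membrane-bound matrix metalloproteinase, was found in 222 of 229 Aspn-rich cells, with a median of 8.24 per 10000. It had 963 CPM (923 to 1003), above the 578 of the Aspn-low class, the 464 of Cxcl12-abundant cells and the 191 of mature osteoblasts. The interval overlapped none of theirs, but the ratio to the Aspn-low class was under 2-fold (log2 ratio 0.73). Pth1r, the parathyroid hormone receptor, had 149.0 CPM (133.7 to 165.6), close to the 150.3 of Cxcl12-abundant cells and below the 252 of the Aspn-low class and the 384 of mature osteoblasts. Mmp13 (collagenase 3) had 311 CPM and was found in 81 cells. It had 1866 CPM in the Aspn-low class, 524 in mature osteoblasts and 4812 in Cxcl12-abundant cells. Mmp2 and its inhibitor Timp2 had 833 and 959.6 CPM, within 2-fold of the Aspn-low class. Irx3 and Irx5 had 28.2 and 6.50 CPM against 56.2 and 44.9 in the Aspn-low class. With 1 genotype at this age, no effect of the alleles can be read.

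The Aspn-rich cells were not of 1 kind. After their values had been seen, they were split into ranges by 1 gene at a time, in this order: haemoglobin, Rgs5, Ly6a, Tnmd and Alpl. The genes that set a range are given as description. Of 229 cells, 6 had at least 1000 per 10000 of haemoglobin genes, 20 had at least 10 of Rgs5, 21 had at least 5 of Ly6a, 97 had a Tnmd UMI, 47 had at least 5 of Alpl, and 38 were left. Few cells lay near the limits of haemoglobin (0 between 100 and 1000), Rgs5 (3 with UMIs below it) and Ly6a (9). For Alpl, 58 members had UMIs below its limit, so the last ranges are stretches of a continuum. No range had more than 3 WPRE UMIs in a cell.

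**Figure D4:**
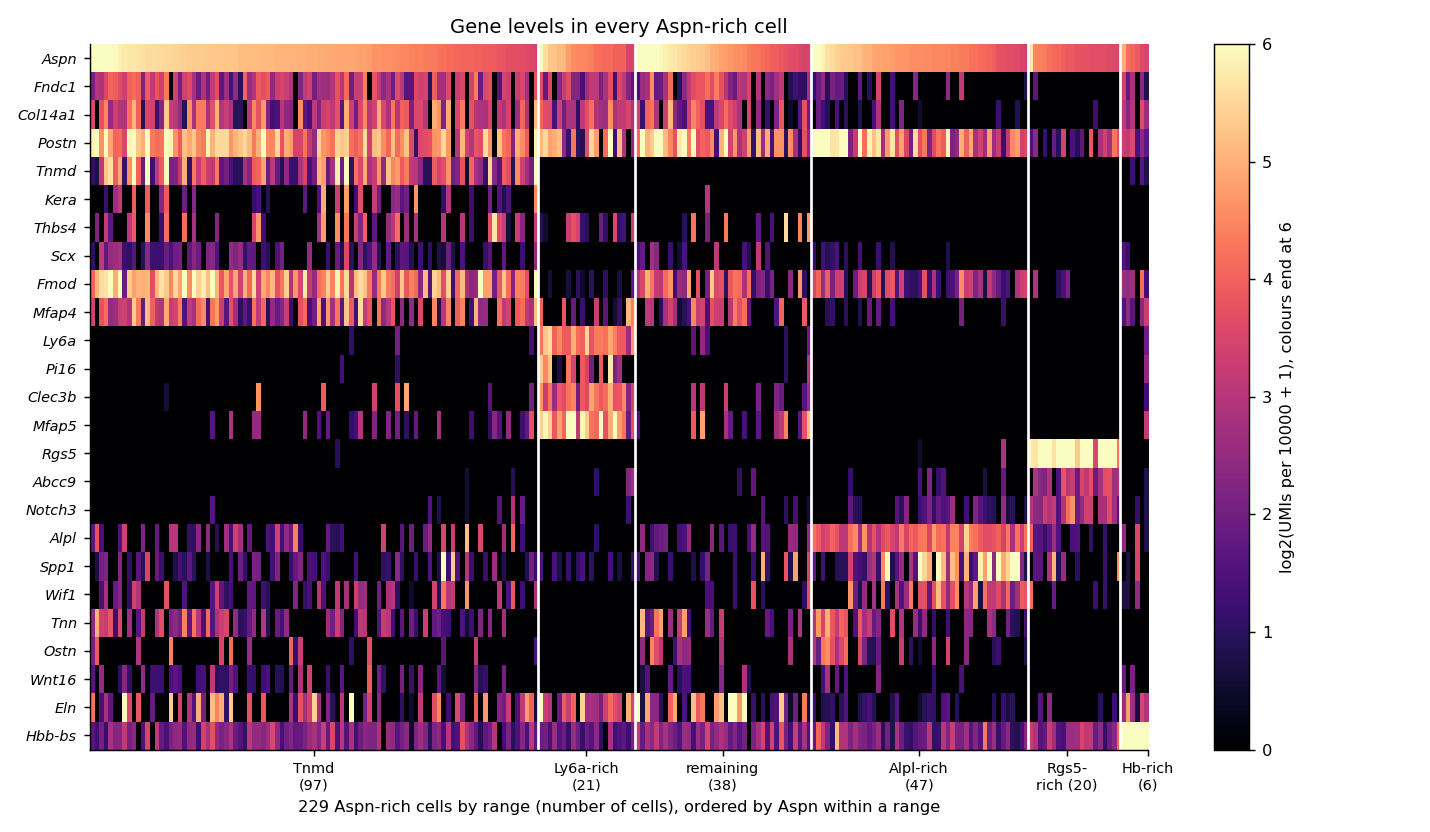
Level of 25 genes (rows) in each of 229 Aspn-rich cells (columns) as log2(UMIs per 10000 + 1), grouped by range with the number of cells and ordered by Aspn. Clec3b and Mfap5 are highest in the Ly6a range and Abcc9 and Notch3 in the Rgs5 range, whereas Postn spans most cells. Fmod and Alpl overlap, with Fmod in 44 of the 47 Alpl-range cells and Alpl in 43 of the 97 Tnmd-range cells.

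The tendon list without Tnmd summed highest in the 97 Tnmd-range cells, at 3927 CPM. It was 1600 in the remaining cells and 1056 in the Ly6a range. Kera, which had 244 UMIs in all members, was in 34 of these 97 cells at 261 CPM (229 to 296) and in 1 cell of the remaining range, with 0 UMIs in the Ly6a, Rgs5 and Alpl ranges. Scx was in 62 of the 97 cells at 163 CPM (138 to 191.5), against 94.0 in the remaining cells and 25.9 in the Alpl range. Fmod (fibromodulin) was in 96 of 97 at 2760.5 CPM, against 849 in the remaining cells, 594 in the Alpl range, 45.5 in the Rgs5 range and 33.4 in the Ly6a range. Col1a2 was highest here among the ranges, at 22985 CPM against 14471 in the remaining cells, 12157 in the Alpl range and 7156 in the Ly6a range. Tppp3 of the tendon list went the other way, at 71.8 CPM in the Tnmd range and 711.5 in the Ly6a range. It was found in 19 of the 21 Ly6a-range cells, and Thbs4 in 13 of them at 296 CPM.

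Without the ranges, all 100 cells with Tnmd were set against the 129 without, at median depths of 8928.5 and 9655 UMIs. Of 6634 genes, 126 (1.9%) were at least 2-fold higher with Tnmd and 285 (4.3%) lower. The tendon list had 6 of 7 genes higher (Scx, Thbs4, Fmod, Kera, Chodl and Cpxm2) and 1 lower (Tppp3), with a median of 2.17, beside -0.11 over all genes. The loose connective tissue list had 0 of 10 higher and 7 lower (median -2.12). Of pericyte and endothelial genes, 4 of 6 and 4 of 4 were lower, and of leukocyte genes 5 of 7 were higher (Laptm5, Tyrobp, Coro1a, Lyz2 and Cd74). Few cells carried those 5 genes, as Tyrobp, Lyz2 and Cd74 had 82.1%, 74.2% and 70.2% of their UMIs in 1 cell, Laptm5 39.3% and Coro1a 31.0%. Without the 20 Rgs5-rich cells described below, 125 genes were higher and 234 lower with Tnmd. The part of leukocyte RNA in the split was not tested. The 8 leading genes were Kera, Igkc, Cpm, Egfl6, 1500015O10Rik, Pappa2, Cpxm2 and Lyz2. Egfl6, a secreted protein of the basement membrane, had 189 CPM with Tnmd and 17.8 without. 1500015O10Rik had 2617 against 386 CPM and was found in 164 of the 229 cells. Cpm, a membrane carboxypeptidase, had 123.8 against 7.43 CPM. Igkc and Lyz2, genes of B cells and phagocytes, had 56.0% and 74.2% of their UMIs in 1 cell each, so 1 cell set their place. Of the cells with Tnmd, 62% had Scx (51.7 to 71.5%), 34% Kera and 44% Wnt16. Of those without, 18.6% had Scx (12.3 to 26.4%), 0.775% Kera and 13.2% Wnt16. Of the 100 cells, 20 had a single Tnmd UMI. Lowest with Tnmd were Rgs5, Ly6a, Olfml2a, Ly6c1, Pi16, Mmp9, Mfap5 and Sparcl1, of which Mmp9 had 60.9% of its UMIs in 1 cell. Irx3 had 4.16 CPM with Tnmd and 45.3 without.

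**Figure D5:**
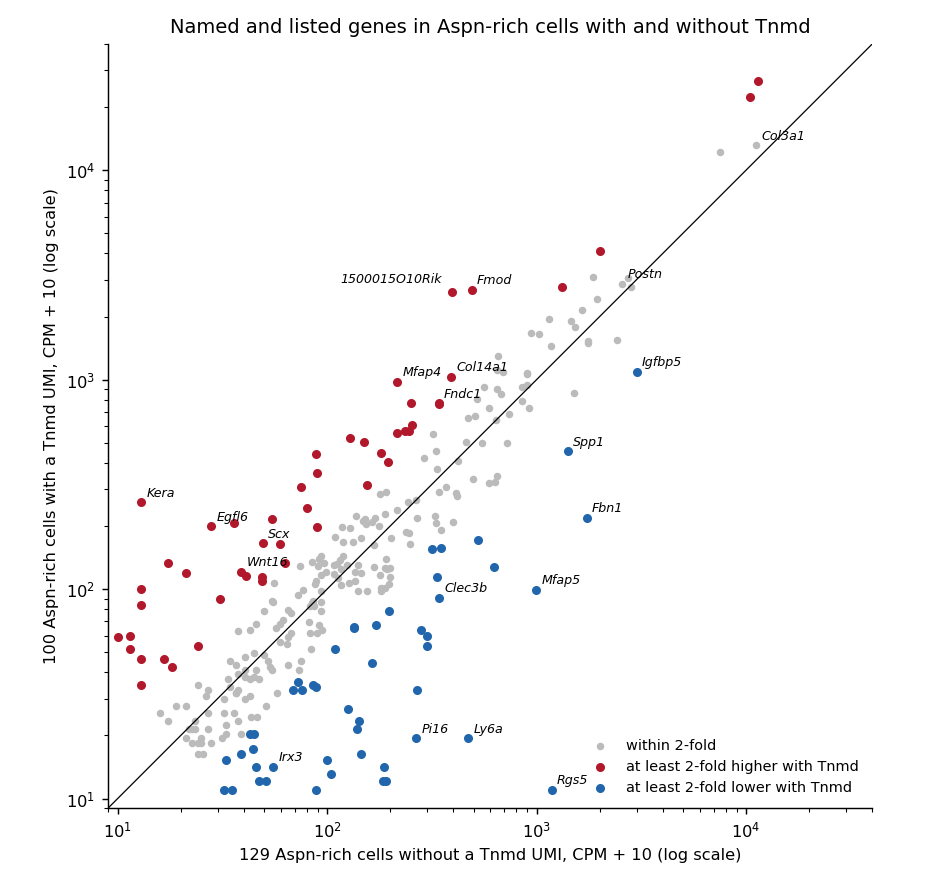
Level of the named and listed genes in 100 Aspn-rich cells with a Tnmd UMI (vertical, CPM + 10, log scale) against 129 without (horizontal). Kera, Egfl6 and Fmod lie above the line of equal level, Rgs5, Ly6a and Pi16 below it, and Postn and Col3a1 near it.

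The sequences before Tnmd (ENSMUSG00000031250, chromosome X, 133850980 to 133865577, forward strand) and Fmod (chromosome 1, 134037254 to 134048277, forward strand) are shown because both levels were high in the same cells. They are from the same table, cut where either annotation begins a transcript, and span chrX:133850758-133850979 and chr1:134037004-134037253. Capitals again mark CANNTG.
Tnmd upstream: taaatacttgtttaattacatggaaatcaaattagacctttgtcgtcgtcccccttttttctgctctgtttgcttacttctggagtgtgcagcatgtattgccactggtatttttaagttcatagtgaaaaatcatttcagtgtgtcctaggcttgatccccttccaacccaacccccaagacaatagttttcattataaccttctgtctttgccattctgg
Fmod upstream: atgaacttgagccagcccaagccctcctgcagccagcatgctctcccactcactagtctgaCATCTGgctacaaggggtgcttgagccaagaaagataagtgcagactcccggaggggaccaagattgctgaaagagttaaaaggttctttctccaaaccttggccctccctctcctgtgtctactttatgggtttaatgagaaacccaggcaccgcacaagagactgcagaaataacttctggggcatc
The Fmod window held 1 match and the Tnmd window of 222 bases 0.

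The 21 Ly6a-range cells carried genes of the loose connective tissue that ensheathes tendons and vessels. That list, which does not hold Ly6a, summed to 13823 CPM, against 1010 in the Tnmd range and 433 in the Alpl range. Pi16, a marker of universal fibroblast progenitors, had 1223 CPM (1095 to 1362) in 13 of the 21 cells, against 3.26 in the Tnmd range. Clec3b (tetranectin) was in 21 of 21 cells at 1493.5 CPM, and Mfap5 in 21 of 21 at 4280.3 CPM against 81.6 in the Tnmd range. Fbn1, the fibrillin of microfibrils, had 6937 CPM here and 213 in the Tnmd range, and these 21 cells held 1872 of its 2518 UMIs in Aspn-rich cells. Sema3c, a guidance cue, had 1445 CPM against 152. Tnn, Scx, Kera, Wnt16 and Ostn had 0 UMIs in this range, whereas Fndc1 and Col14a1 were in 20 and 21 of its cells, at 581.8 and 859.8 CPM. Tppp3 and Thbs4 of the tendon list were present, as given above.

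The 47 Alpl-range cells had the highest osteoblast-list sum of the ranges, most of it Spp1. The osteoblast list without Alpl summed to 6507 CPM, against 1549 in the Tnmd range and 263 in the Ly6a range. Spp1 had 3413 CPM (3253 to 3579) in 42 of the 47, Cxcl12 937 CPM in 31, and Tnc (tenascin-C) 3084 CPM in all 47. Ostn was in 22 of the 47, at 325 CPM. Over all members, 40 of the 47 cells with Ostn also had Alpl and 36 had Tnn, against 84 and 69 of the 182 without Ostn. Fndc1 and Col14a1 were low in the Alpl range, at 101.7 and 51.8 CPM, while Postn was at 3189.8 CPM. The tendon list summed to 652 CPM there and 3927 in the Tnmd range.

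The 20 Rgs5-range cells went against the label. Of these, 18 had no UMI of Fndc1, Col14a1 or Tnmd, and 0 reached 50 per 10000 of Col1a1. The pericyte and smooth muscle list, without Rgs5, summed to 2286 CPM against 189 in the Tnmd range. Abcc9 and Notch3, a channel subunit and a receptor of mural cells, had 662 and 669 CPM against 2.18 and 16.3. Col4a1, a basement membrane collagen, had 4039 CPM against 117.5. The endothelial list summed to 740.2 CPM, led by Cd93 and Emcn at 175 CPM each. Mural cells are known to lie on vessels. Their Aspn ranged from 10.1 to 50.8 per 10000, and their median depth was 6772 UMIs.

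The 38 remaining cells had Col14a1 at 626 CPM, Fndc1 at 583 and Mfap4 at 448, against 1033, 779 and 990.2 in the Tnmd range. Ctgf, a matricellular growth factor, had 1007 CPM against 499. The 6 haemoglobin-rich cells had 1367 to 4297 per 10000 of haemoglobin, whereas the highest other cell had 61.9. Of these 6, 5 also had Top2a, a gene of dividing cells, 3 had Tnmd, and Scrublet marked 2.

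Beside the mural genes above, markers of other cell types were measured in all 229 cells. Of 9 skeletal muscle genes, 6 had 0 UMIs (Myh3, Myh8, Ckm, Actn2, Myod1 and Pax7) and the list summed to 6.07 CPM, led by Tnnt3. Sox10 and Foxd3 of the Schwann cell list had 0 UMIs, and the list summed to 28.2 CPM, most of it S100b (24.7). The osteoclast list summed to 487 CPM, of which 459 were Ctsk, a cathepsin that periosteal cells also make, and Oscar and Dcstamp had 0 UMIs. The leukocyte list summed to 254 CPM against 39768 in leukocytes, and the endothelial list to 84.5, with Stab2 at 0 UMIs. The red cell list was at 12568 CPM against 13472 in leukocytes, and 15375 of its 16248 Hbb-bs UMIs were in the 6 cells above. The chondrocyte list summed to 1428 CPM in Aspn-rich cells, 446 in leukocytes and 44291 in chondrocytes. Matn1, a cartilage gene, had 33.4 CPM, near the 24.3 of leukocytes, but Acan (aggrecan) had 506 against 56.8 and Comp 281 against 56.7. Within the members Acan was at 752 CPM in cells with Tnmd and 330.5 in cells without. The part of free RNA in the chondrocyte genes was not tested beyond these values.

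Of genes of cell division, 0 of 9 differed 2-fold from the Aspn-low class, where 3.28% of all genes were higher and 1.7% lower, so the count says little of these genes. Top2a was found in 56 cells. Of 12 genes of the immediate early and dissociation response, 2 were higher (Fos and Hspa1a) and 0 lower. Fos had 1640 CPM against 736, and its part in the other differences was not tested.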

How the data were processed

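The authors deposited raw UMI counts of genes by barcodes for 1 library, not normalized. Their processing notes name Cell Ranger 3.1.0, Seurat 3 and mm10, to which reporter sequences were added. A deposited count matrix of 98 exogenous sequences was joined by barcode, and all 14181 barcodes were found in it. The 4 sequencing entries were counted together. For the annotation, a release was not given in the sources used here. An older sample was not analysed here.

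Barcodes with at least 1600 genes, the minimum of the study, and at most 10% mitochondrial UMIs were kept. Classes were set by limits on single genes, and the members, limits and 27 gene lists were chosen with earlier results of these data known. Counts of a class were summed and scaled per 1000000. Log2 ratios were taken with 10 CPM added, for genes that reached 20 CPM in one class or the other. Called means 2-fold. Intervals are exact Poisson or Clopper-Pearson at 95%, a limit for 0 is 3 counts, and all cover counting error only. For shares, cells were thinned to 5000 UMIs with seed 1. Scrublet ran on all barcodes at an expected rate of 10% and marked 588 (4.15%), which were kept. The comparison was tested on simulated data. Alternatives changed the mitochondrial, gene, Aspn, Col2a1, Ptprc and doublet limits, the scale, the added CPM, the low-count filter, the WPRE limit and the thinning depth. Python 3.11.15, numpy 2.4.6, scipy 1.17.1, pandas 2.3.3, scanpy 1.11.5, anndata 0.12.19 and matplotlib 3.10.9 were used.

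Named genes are the 20 with the largest smallest log2 ratio over 3 classes (at least 50 CPM and 50 UMIs, in at least 20% of members), the 15 lowest against the Aspn-low class (at least 50 CPM there), 8 in each direction between members with and without Tnmd, and members of the lists. Coordinates are from GENCODE M21 (GRCm38), which held 30934 of 31053 gene identifiers. Genes named for the ranges come from these lists and were chosen after their values were seen. The count over the list of transcription factors is not reported here.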

Additional observations from a re-analysis of the deposited data

How the results depend on the processing

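With 1 library, no replicate could be left out. No paired analysis was possible because all samples are 1 group of 1 library. Limiting mitochondrial UMIs to 5% left 83 Aspn-rich cells, with 350 genes higher and 171 lower than in the Aspn-low class and 214 higher and 460 lower with Tnmd. Aspn at 20 per 10000 left 144 cells, with 170 genes lower than in the Aspn-low class. The share with Tnmd, counted only over cells thinned to 5000 UMIs (40.8% in the main result), was 48.2% under either of these limits and 33.2% with Aspn at 5 per 10000. Adding 1 CPM in place of 10 gave 338 higher and 165 lower than in the Aspn-low class, 1381 higher than in mature osteoblasts, and 197 higher and 528 lower with Tnmd. Median-of-ratios scaling gave 361 lower than in mature osteoblasts. Averaging over cells put 4 lists at least 2-fold above the Aspn-low class in place of 7. These were 3 of the 7 (label markers, periosteum and elastic fibres) and the list of Cxcl12-abundant stroma, at log2 ratios of 0.96 summed and 1.02 averaged. Counting any WPRE UMI gave 20.5% in place of 0. The cause was not tested in these cases, other than the changed limits themselves. The other 167 values of the main results stayed within 1.5 times or within their interval. Of 35 leading and lowest genes, 27 kept their direction and at least 2-fold under all 16 settings, which did not include leaving out the Ly6a range. All 35 were picked for large ratios in these same cells, so this count is no separate support for them. The other 8 were S100a8 (0.53), Stfa1 (0.20), Gm5483 (0.21), BC100530 (0.20), Camp (0.16), Ngp (0.14), Stfa2l1 (0.094) and S100a9 (0.011), whose ratios turned positive once cells rich in S100a8 and S100a9 were left out. Settings that left out the Rgs5, Ly6a, haemoglobin or S100a8 cells, and a WPRE limit per depth, were added after seeing the data.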
